A study of Mus musculus with 6 samples.

Results

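The hypoxia response and glycolysis genes are a set of 36 named genes that carry glucose into cells, turn it into lactate, or report the oxygen state of a cell. They were chosen by symbol, with earlier results of these data known. Each was read from the brightest probe set, by its mean on the 6 arrays, among those annotated to that symbol and no other. Of the 36 genes, 33 had such a probe set, out of 19938 genes on the array. They comprise 3 of 3 genes of glucose and lactate transport, 15 of 18 glycolytic enzymes, 13 of 13 targets of hypoxia-inducible factor (HIF) outside glycolysis and 2 of 2 HIF alpha subunits. Gapdh was not analysed here because all 25 probe sets that name it also name other genes, and for Gpi1 and Eno1 the rule gave no probe set.

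The samples were whole stomachs of mouse embryos at embryonic day 13.5, measured on Affymetrix arrays as log2 signal. The SmoM2 group (n = 3) carried Nkx3.2Cre;R26-SmoM2, in which a Cre recombinase made under the control of Nkx3-2 switches on a ligand-independent form of Smoothened, the transducer of hedgehog signals, from the Rosa26 locus. The other group was wild type (n = 3), with no further allele in the labels. Cre acts in the descendants of cells that used Nkx3-2, a gene of the stomach mesenchyme, so epithelium, nerve and blood cells on the arrays are not expected to carry the active form. Nothing in the labels tells whether the arrays of a group came from different embryos or from pools, and the p-values therefore rest on variation among these samples that may be technical.

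Glycolysis splits glucose into pyruvate in the cytoplasm, and lactate dehydrogenase turns pyruvate into lactate when oxygen is short or growth is fast. HIF is a pair of proteins made of an alpha subunit and a constant partner. In normal oxygen the prolyl hydroxylases mark the alpha subunit for destruction, so HIF activity is set mainly by protein stability. When oxygen falls the alpha subunit lasts longer and HIF raises transcription of glucose transporters, most glycolytic enzymes, angiogenic signals and the hydroxylases themselves.

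Genes of olfactory and vomeronasal receptors, taken as not expressed in stomach, had array medians from 6.16 to 6.40 (log2 signal). Of the members only Car9 had a mean below the 95th percentile of those receptor genes, which was 8.05. Markers of stomach mesenchyme and epithelium were all above that value, with Tbx5 at a mean of 8.66 and Trp63 at 8.37 the dimmest of their lists. Hhip and Ptch1, which report hedgehog activity, rose in SmoM2, and 0 of the 5 genes of that list fell. Gli1, of the same list, did not pass (log2 change 0.42, limma, adjusted p = 0.0727). Nkx3-2 at -0.12 and Smo at 0.35 did not pass either, and Smo is the gene whose active form the allele carries. Xist, which is made in female cells, was at 11.93, 12.37 and 11.43 in SmoM2 and at 7.11, 11.94 and 11.68 in wild type. The mean of 3 Y-linked genes was 8.71, 8.94 and 9.27 in SmoM2 and 10.37, 9.92 and 9.07 in wild type. Sex markers thus differed between the groups and among the wild type arrays.

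In the main comparison 1 of the 33 measured genes rose and 1 fell, namely Bnip3 and Slc2a3, and 31 did not pass limma's test at an adjusted p of 0.05. Over all 19938 genes 0.983% passed, 0.326% higher and 0.657% lower. At an unadjusted p under 0.05 there were 9 members (27.3%), 7 higher and 2 lower, against 10.5% of all genes. In 13 members (39.4%) the SmoM2 and wild type arrays did not overlap, 10 with SmoM2 higher and 3 with SmoM2 lower, against 15.7% of all genes (5.64% higher and 10.1% lower). The median log2 change was 0.07 over the members and 0.002 over all genes, and 24 of 33 members had a positive change. These shares describe the set and were not tested. Members were chosen with earlier results of these data known, so the shares are not independent of that choice. The count over all genes also includes dim ones, such as the 1194 receptor genes, while of the members only Car9 was that dim. The part of signal level in the shares was not tested.

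**Figure D1:**
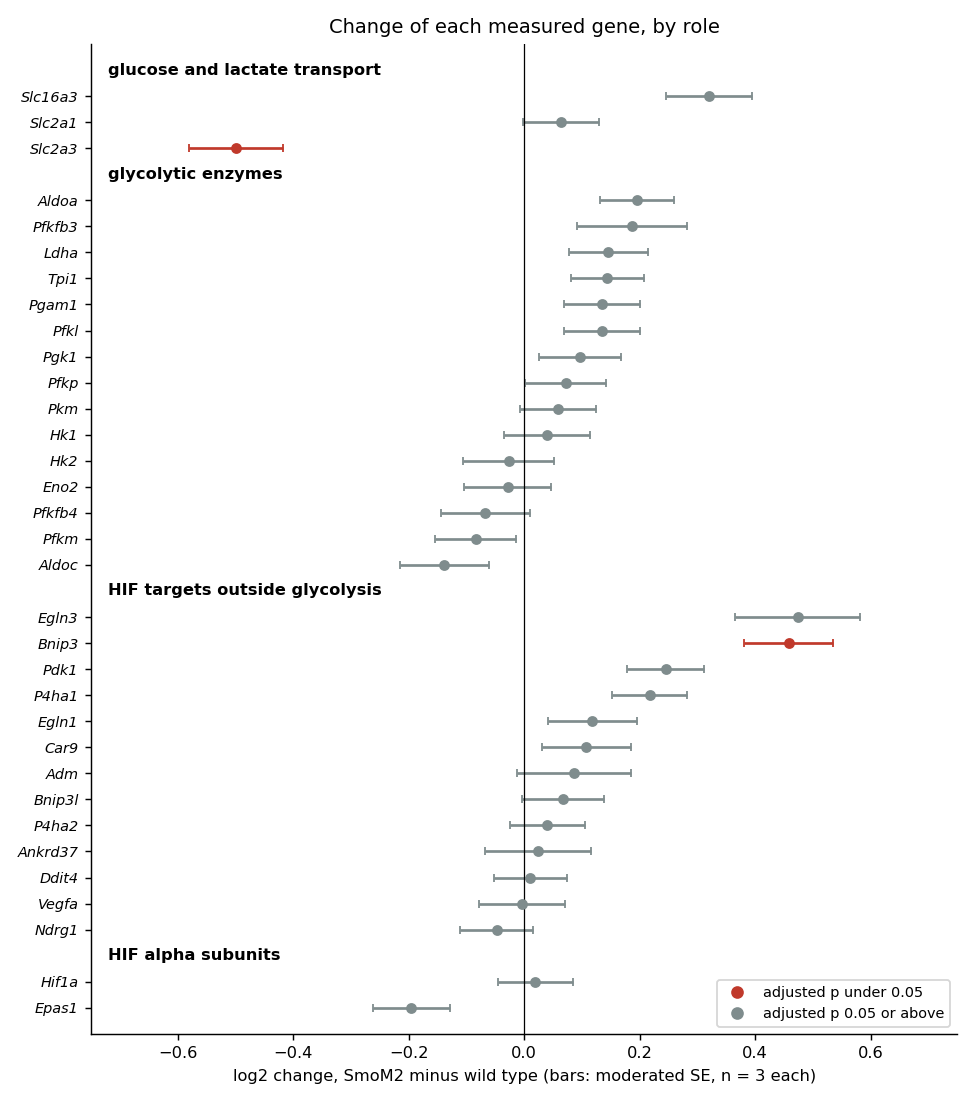
Log2 change (SmoM2 minus wild type) of the 33 measured genes, ordered within each role, with moderated standard errors from 3 arrays a group. Slc2a3 at -0.50 and Bnip3 at 0.46 are the points in red that passed the test, and Egln3 at 0.47 lies beside Bnip3 without passing.

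Promoter sequence is shown for Bnip3, Slc16a3 and Egln3, the 3 members with the largest positive changes (Slc16a3 and Egln3 did not pass), because the DNA motif bound by HIF can be read in it. Each window runs from 250 bases before to 50 bases after the start of the gene, from RefSeq on GRCm38.p6. Capitals mark ACGTG or GCGTG, the core of the HIF motif, on either strand. Bnip3 is at chr7:138909457-138909756, minus strand. Slc16a3 is at chr11:120948817-120949116, plus strand. Egln3 is at chr12:54203825-54204124, minus strand.
Bnip3: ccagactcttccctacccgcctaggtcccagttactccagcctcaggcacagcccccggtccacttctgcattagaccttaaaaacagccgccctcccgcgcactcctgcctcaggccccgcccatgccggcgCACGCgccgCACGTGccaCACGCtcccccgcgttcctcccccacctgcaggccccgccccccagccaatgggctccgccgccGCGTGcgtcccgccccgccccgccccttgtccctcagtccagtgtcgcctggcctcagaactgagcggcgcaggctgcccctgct
Slc16a3: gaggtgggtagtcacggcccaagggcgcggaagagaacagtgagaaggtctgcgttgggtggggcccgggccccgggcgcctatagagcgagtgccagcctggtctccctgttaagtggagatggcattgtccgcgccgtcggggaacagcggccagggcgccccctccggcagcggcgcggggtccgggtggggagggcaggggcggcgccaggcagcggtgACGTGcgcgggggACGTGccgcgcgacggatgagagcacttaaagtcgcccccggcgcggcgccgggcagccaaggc
Egln3: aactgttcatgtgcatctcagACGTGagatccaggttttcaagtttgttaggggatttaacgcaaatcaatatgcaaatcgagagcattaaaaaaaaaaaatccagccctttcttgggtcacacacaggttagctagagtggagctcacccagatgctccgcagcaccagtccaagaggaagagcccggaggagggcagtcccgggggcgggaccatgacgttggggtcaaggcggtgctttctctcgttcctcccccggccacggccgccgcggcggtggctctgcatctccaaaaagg

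The Bnip3 window holds 5 matches, 2 of which overlap in the letters CACGTG. The Slc16a3 window holds 2 matches close to the start, and the Egln3 window 1 match far from it. Of the 36 members, 32 had at least 1 window, 46 windows in all. Slc2a3, Ndrg1, Epas1 and Bnip3l had none. The core was in 37 of the 46 windows (80.4%), against 43.8% of all 32851 windows, and the longer ACGTGC, which overlaps the core, in 16 (34.8%) against 5.92%. Some genes have several windows, and counted by gene the core was in 29 of 32 (90.6%), against 46.7% of all genes with a window. Many members were listed because they are known HIF targets, so these shares are not independent of how the list was chosen. The members' windows were richer in G and C, with a median of 62.2% against 52.7%, and the part of base composition in these shares was not tested. GACCACCCA, the motif of the Gli factors that hedgehog signals act through, was in 0 of the 46 windows and in 0.253% of all windows, on either strand. A match in these letters is a description and not a binding site.

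Of the transport genes 1 fell, Slc2a3, and the other two did not pass. Slc2a3, which encodes the high-affinity glucose transporter GLUT3 of neurons and white blood cells, was at 9.89, 10.14 and 9.92 (log2 signal) in SmoM2 and at 10.50, 10.48 and 10.46 in wild type. Every SmoM2 array lay below every wild type array, and the wild type arrays were nearly equal. Slc2a3 fell by 0.50 on the log2 scale (SE 0.08), which is 1.41-fold lower in SmoM2 (limma, adjusted p = 0.0250). The call was lost when wild type 1 (adjusted p = 0.139), wild type 2 (0.0921), SmoM2 1 (0.0822) or SmoM2 3 (0.155) was left out, with changes between -0.58 and -0.45 over the 6 omissions. It was also lost with Y-linked signal as a covariate (log2 change -0.48, adjusted p = 0.357).

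Summed markers of 2 cell types that use Slc2a3 were lower on the same arrays. Of 9 measured genes listed for enteric neurons 4 fell (Nefl, Nefm, Dcx and Dbh) and 0 rose, with 7 negative and 2 positive changes. The positive changes were Ret at 0.05 and Sox10 at 0.11. Sox10 marks enteric glia rather than neurons, so the list is not of neurons alone. Ret, Sox10, Elavl4 and Tubb3 had overlapping groups. The summed linear signal of the 9 ran from 6697 to 7993 in SmoM2 and from 9430 to 10736 in wild type. Of 10 leukocyte genes 0 passed and 10 had a negative change, with sums from 4845 to 5474 in SmoM2 and from 6018 to 6312 in wild type. Log2 signals have no zero, and the dimmest members of the lists were Tubb3 at a mean of 8.32 and Lyz2 at 8.11. The part of either cell type in the change of Slc2a3 was not tested, and in whole tissue fewer cells of a type and less RNA per cell cannot be told apart.

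Slc16a3, which encodes the lactate exporter MCT4, leaned the other way. It was at 11.07, 11.03 and 10.92 in SmoM2 and at 10.60, 10.75 and 10.71 in wild type, so the groups did not overlap. The log2 change was 0.32 (SE 0.07, adjusted p = 0.104), which did not pass. Slc2a1, the widespread glucose transporter GLUT1, was at 12.42 ± 0.04 in SmoM2 and 12.36 ± 0.04 in wild type (SD, n = 3 each), with a 95% interval of the log2 change from -0.08 to 0.21. Erythroid cells of the embryo are rich in Slc2a1, and the 7 measured erythroid markers summed to between 36458 and 40603 in SmoM2 and between 41702 and 46819 in wild type, with Klf1 the dimmest at a mean of 9.20; 0 of these 7 passed, and their part in the level of Slc2a1 was not tested.

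None of the 15 measured glycolytic enzymes passed limma's test over all genes, and 2 of them, Aldoa and Tpi1, had an unadjusted p under 0.05 (13.3%, against 10.5% of all genes). Changes ran from -0.14 to 0.20 on the log2 scale, with a median of 0.07, 10 positive and 5 negative. On the probe sets used, every SmoM2 array lay above every wild type array in 5 enzymes. In 0 enzymes did the groups part the other way. Those 5 are 33.3% of the enzymes, against 15.7% of all genes (5.64% higher and 10.1% lower), and the difference was not tested. Another Hk1 probe set, numbered among the gene's own chromosome 10, had every SmoM2 array below every wild type array.

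Pfkl, the liver-type subunit of phosphofructokinase, which commits sugar to glycolysis, was at 11.27, 11.30 and 11.28 in SmoM2 and at 11.10, 11.14 and 11.21 in wild type (log2 change 0.13, adjusted p = 0.531). Aldoa, the aldolase that splits the sugar, was at 12.88, 12.82 and 12.87 in SmoM2 and at 12.63, 12.67 and 12.69 in wild type (log2 change 0.20, adjusted p = 0.278). This was the largest enzyme change, and within each group the 3 arrays lay close together. Tpi1, which interconverts the products of that split, was at 13.20, 13.24 and 13.22 in SmoM2 and at 13.09, 13.05 and 13.08 in wild type (log2 change 0.14, adjusted p = 0.463). Pgam1, the phosphoglycerate mutase of most tissues, was at 13.12, 13.10 and 13.045 in SmoM2 and at 12.90, 12.97 and 12.98 in wild type (log2 change 0.13, adjusted p = 0.530). Neither gene passed. Ldha, the lactate dehydrogenase subunit that favours lactate, was at 13.40, 13.44 and 13.31 in SmoM2 and at 13.27, 13.26 and 13.19 in wild type (log2 change 0.15, adjusted p = 0.517). In all 5 the shift was at most 1.15-fold and was not called.

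**Figure D2:**
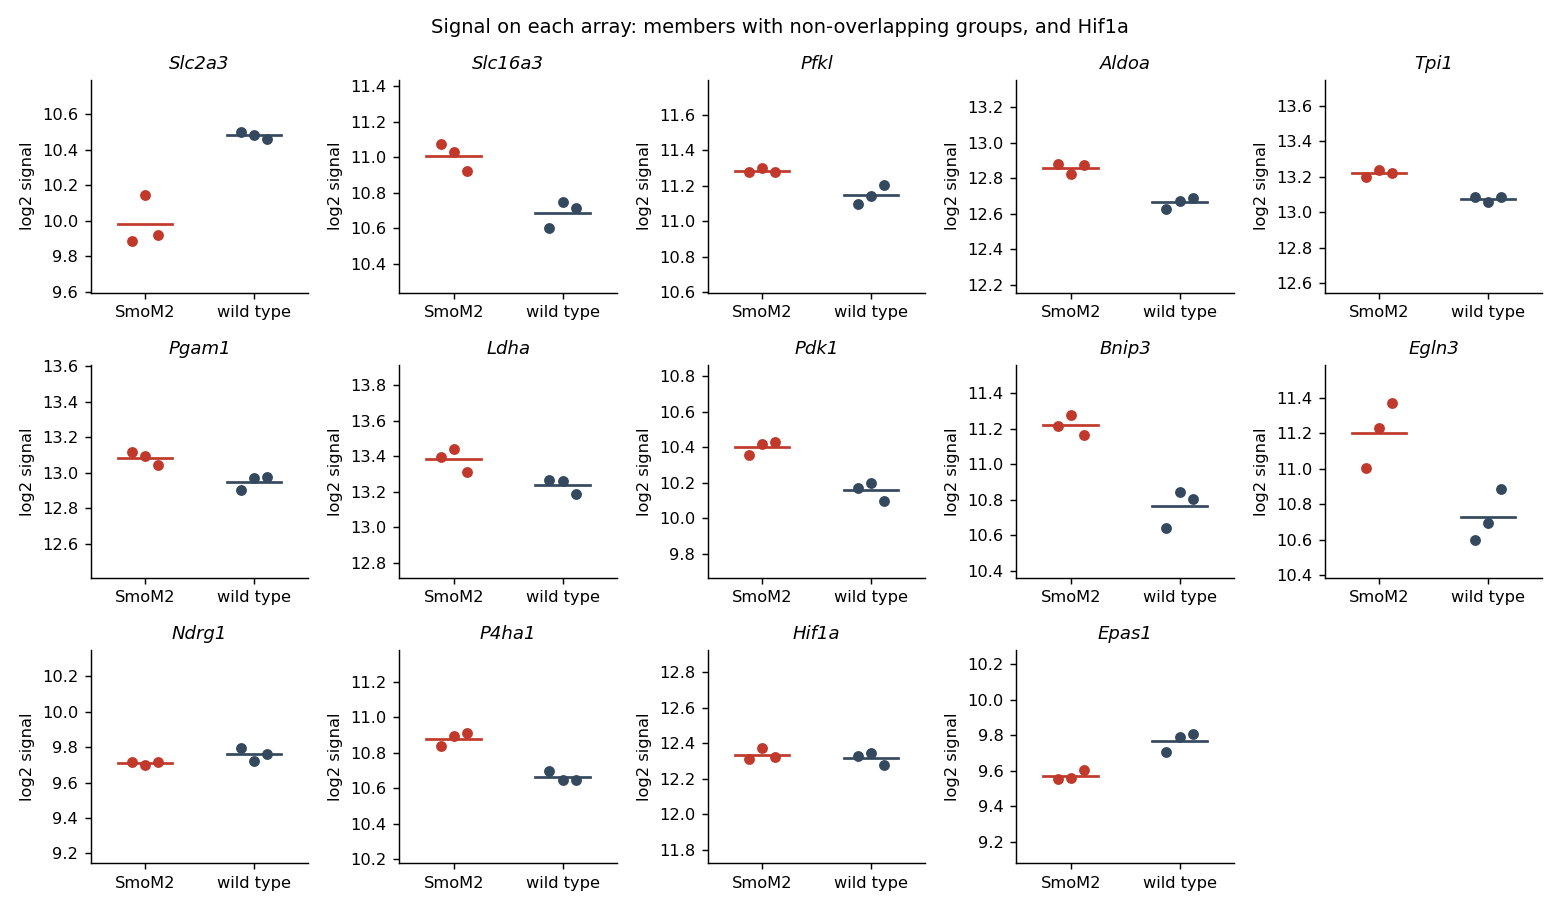
Log2 signal on each array for the 13 genes whose groups do not overlap and for Hif1a, with SmoM2 left of wild type and a line at each group mean; every panel spans the same range of log2 units. Slc2a3, Ndrg1 and Epas1 are the 3 with SmoM2 below wild type, Bnip3 and Egln3 have the widest upward gaps between means, and the Hif1a groups overlap.

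The other enzymes had overlapping groups on the probe sets used. Pfkfb3, which makes the activator of phosphofructokinase, was at 9.85, 10.01 and 9.63 in SmoM2 and at 9.65, 9.66 and 9.62 in wild type, so its mean change of 0.19 rested on SmoM2 1 and SmoM2 2. Pgk1, an X-linked enzyme that makes ATP, had a change of 0.10, Pfkp, the platelet-type subunit of phosphofructokinase, 0.07, Pkm, the pyruvate kinase of most tissues, 0.06 and Hk1, the widespread hexokinase, 0.04. Hk2, the inducible hexokinase, and Eno2, the neuronal enolase, both had a change of -0.03. Pfkfb4, a relative of Pfkfb3, was at -0.07 and Pfkm, the muscle-type subunit, at -0.08. The lowest was Aldoc, the aldolase of brain, at 9.24, 9.30 and 9.14 in SmoM2 and at 9.30, 9.47 and 9.33 in wild type (log2 change -0.14, adjusted p = 0.609). Adjusted p in these 10 enzymes ran from 0.563 to 0.955.

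Array by array, the enzymes' median deviation from each gene's own mean over 6 arrays was 0.05, 0.06 and 0.001 in SmoM2 and -0.06, -0.05 and -0.01 in wild type. SmoM2 3 and wild type 3 thus lay close to each other in this measure, and the other arrays lay farther apart. For all genes tested the same medians ran from -0.01 to 0.004 in SmoM2 and from -0.03 to 0.03 in wild type.

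Among the 13 HIF targets outside glycolysis 1 rose, Bnip3, and 12 did not pass. Changes ran from -0.05 to 0.47, with 11 positive and a median of 0.09. Bnip3 encodes a protein of the outer mitochondrial membrane that recruits the autophagy machinery. It was at 11.21, 11.28 and 11.17 in SmoM2 and at 10.64, 10.84 and 10.80 in wild type. Every SmoM2 array lay above every wild type array, with wild type 1 the lowest. Bnip3 rose 1.37-fold (log2 change 0.46, SE 0.08, adjusted p = 0.0286). Leaving out wild type 3 kept the call, and leaving out any other array lost it (adjusted p from 0.0563 without SmoM2 2 to 0.150 without wild type 1, with 0.0760 for wild type 2, 0.0825 for SmoM2 1 and 0.129 for SmoM2 3). It was also lost with arrays centred on the 75th percentile (adjusted p = 0.0544) and with Y-linked signal as a covariate (log2 change 0.37, adjusted p = 0.503).

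The probe set used for Bnip3 is numbered among probe sets of chromosome 14, judged from its 20 nearest named neighbours, while the gene lies on chromosome 7, so it may be read from a copy elsewhere. The other Bnip3 probe set is numbered among those of chromosome 7. It was at 10.47, 10.37 and 10.38 in SmoM2 and at 9.99, 10.09 and 9.97 in wild type, again with no overlap. When each gene was read from a probe set numbered among its own chromosome, an alternative chosen after seeing the data, Bnip3 rose 1.31-fold (log2 change 0.39, SE 0.07, adjusted p = 0.0351). Both Bnip3 probe sets thus gave a rise.

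Egln3, an oxygen-sensing prolyl hydroxylase that HIF induces, was at 11.00, 11.23 and 11.37 in SmoM2 and at 10.60, 10.70 and 10.89 in wild type. Its groups did not overlap, but its arrays spread more than those of Bnip3. The log2 change was 0.47 (SE 0.11, adjusted p = 0.0949), which did not pass. Over the 6 omissions of 1 array the adjusted p ran from 0.0475 without wild type 3 to 0.395 without wild type 1, and only the omission of wild type 3 gave a call. Over all 16 alternatives Egln3 was called in 4, and its highest adjusted p was 0.844, with Y-linked signal as a covariate. Egln1, the main hydroxylase of HIF, was at 11.34 ± 0.07 in SmoM2 and 11.22 ± 0.10 in wild type (SD, n = 3 each; log2 change 0.12, adjusted p = 0.687), with overlapping groups.

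Pdk1 encodes a kinase that restrains the use of pyruvate inside mitochondria. It was at 10.36, 10.42 and 10.43 in SmoM2 and at 10.17, 10.20 and 10.10 in wild type (log2 change 0.24, SE 0.07, adjusted p = 0.162). P4ha1, a collagen prolyl hydroxylase, was at 10.84, 10.90 and 10.91 in SmoM2 and at 10.70, 10.65 and 10.65 in wild type (log2 change 0.22, SE 0.06, adjusted p = 0.214). Both had groups that did not overlap and an unadjusted p under 0.05, and neither passed. P4ha2, the companion of P4ha1, had a change of 0.04.

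Several widely used reporters of hypoxia stayed within the spread between arrays. Vegfa, the growth signal for blood vessels, was at 10.44, 10.56 and 10.37 in SmoM2 and at 10.49, 10.49 and 10.39 in wild type, and the 95% interval of its log2 change ran from -0.17 to 0.16. Car9, a surface carbonic anhydrase, was the dim member, at 7.65 ± 0.05 in SmoM2 and 7.54 ± 0.11 in wild type (SD, n = 3 each). Changes were 0.09 for the vessel peptide Adm, 0.02 for Ankrd37, 0.01 for Ddit4, which restrains the mTOR kinase, and 0.07 for Bnip3l, the relative of Bnip3 that clears mitochondria from red cells. Ndrg1, a stress-response gene, was at 9.71, 9.70 and 9.72 in SmoM2 and at 9.79, 9.72 and 9.76 in wild type. Its groups did not overlap, by a gap far smaller than that of Bnip3, and its change of -0.05 had an adjusted p of 0.866.

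Transcripts of the HIF alpha subunits did not pass. Hif1a, the widespread subunit, was at 12.31, 12.37 and 12.32 in SmoM2 and at 12.33, 12.34 and 12.28 in wild type. The groups overlapped, and the 95% interval of the log2 change was -0.13 to 0.16. Epas1, which encodes HIF-2 alpha and is strong in endothelium, was at 9.55, 9.56 and 9.60 in SmoM2 and at 9.70, 9.79 and 9.81 in wild type. Every SmoM2 array lay below every wild type array, with a log2 change of -0.20 (SE 0.07, adjusted p = 0.297). Of 10 endothelial markers 0 passed and 10 had a negative change. Their summed linear signal ran from 15948 to 17342 in SmoM2 and from 18353 to 18908 in wild type, with Flt1 the dimmest at a mean of 9.56, and their part in the level of Epas1 was not tested.

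Smooth muscle markers moved with the members that leaned upward. Of 10 measured, 5 rose and 1 fell, and they summed to between 18669 and 21949 in SmoM2 and between 13819 and 14746 in wild type, with Myh11 the dimmest at a mean of 8.85. Epithelial markers moved against them, with 6 of 11 lower, 0 higher and sums from 13264 to 14751 in SmoM2 and from 19205 to 21116 in wild type, with Trp63 the dimmest at 8.37. The part of either tissue in the changes of Bnip3, Egln3, Slc16a3 and the enzymes was not tested.

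**Figure D3:**
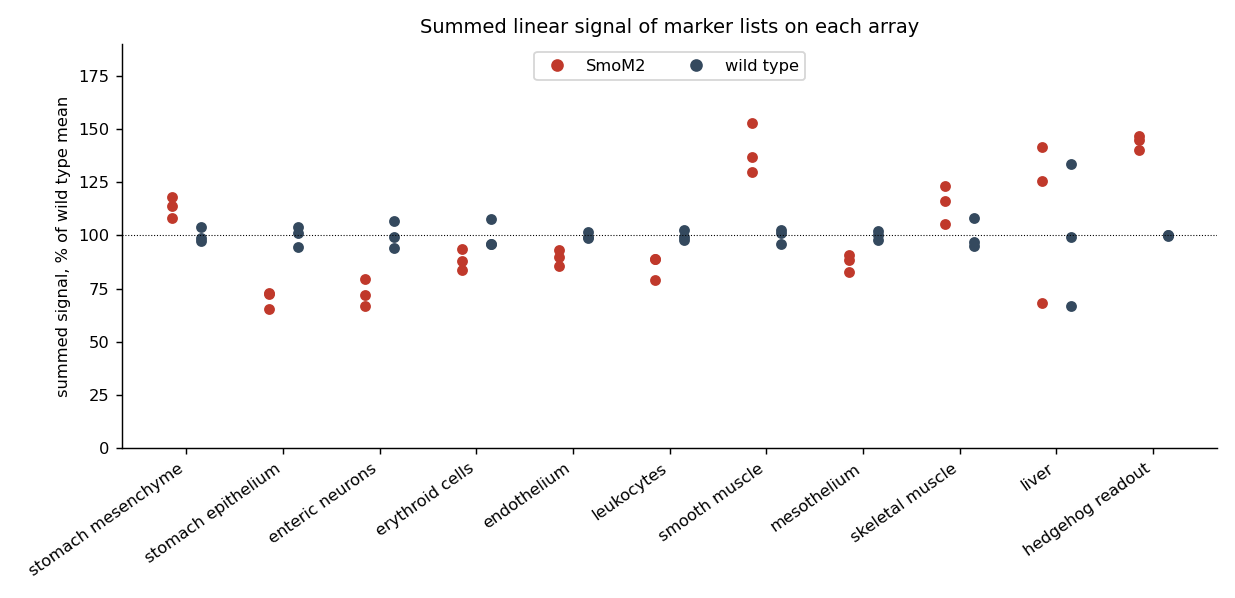
Summed linear signal of each marker list on each array, as a percent of the wild type mean, with SmoM2 left of wild type. SmoM2 arrays lie above all wild type arrays for smooth muscle, stomach mesenchyme and hedgehog readout genes and below them for epithelium, enteric neurons, erythroid cells, endothelium, leukocytes and mesothelium, while the skeletal muscle and liver sums overlap. The stomach mesenchyme genes did not move as 1: of 10 measured, 2 rose and 1 fell, with 5 positive and 5 negative changes. The hedgehog readout sum includes Smo, the gene whose active form the allele carries.

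Reading the same gene from another probe set mattered most for Hk1. In 6 members with several probe sets, Hk1, Pgk1, Pgam1, Pkm, Bnip3 and Bnip3l, the brightest had a number in the run of another chromosome. Pgk1, Pgam1, Pkm, Bnip3 and Bnip3l had changes of the same sign on every probe set. Pgk1 and Pgam1 each had a pair of probe sets with equal values, which are 1 measurement. Hk1 had a change of 0.04 on the probe set used and of -0.12 on the one numbered among its own chromosome 10, where the 3 SmoM2 arrays, at 9.47, 9.60 and 9.54, lay below the wild type arrays, at 9.63, 9.72 and 9.62 (adjusted p = 0.633). The direction of Hk1 therefore depended on the probe set.

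**Figure D4:**
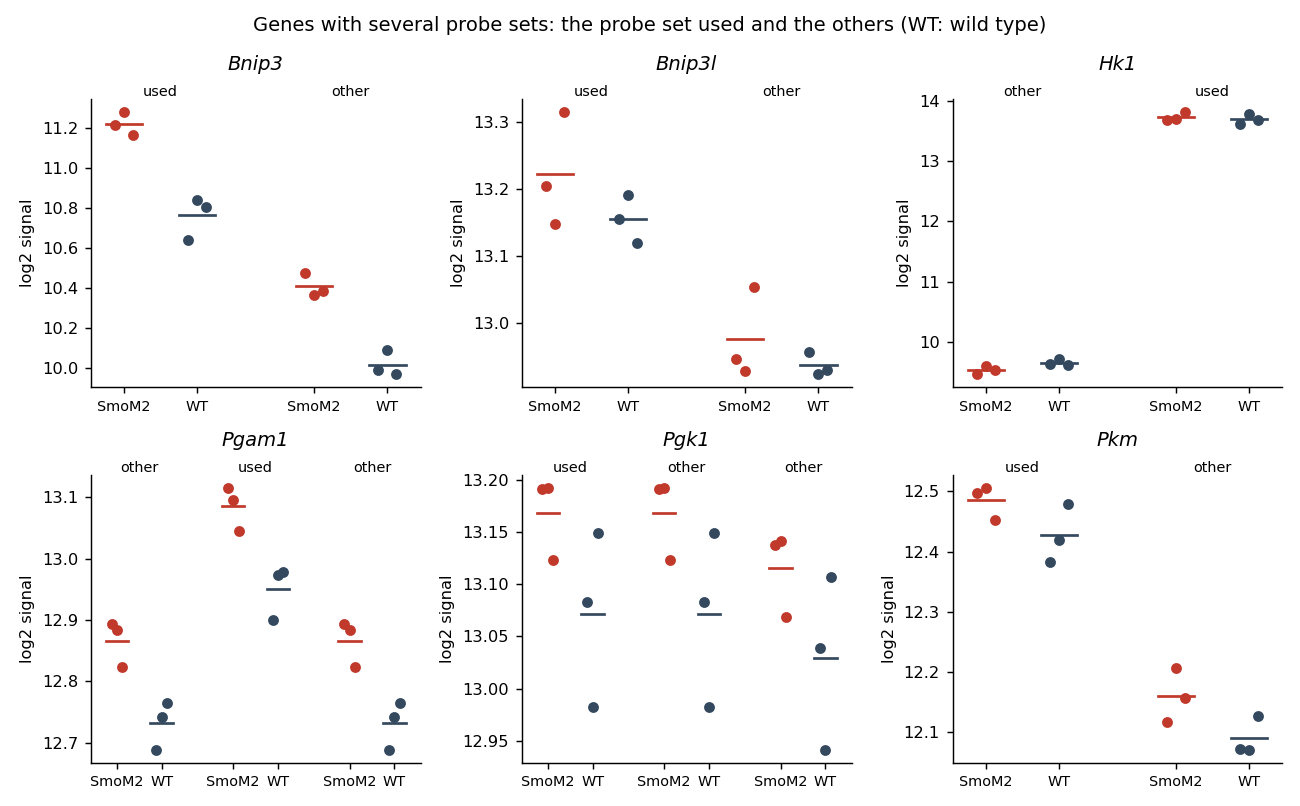
Log2 signal on each array for each probe set of the 6 genes with several, with SmoM2 left of wild type and the probe set used marked. Both Bnip3 probe sets have SmoM2 above wild type without overlap, while those of Hk1 have means that differ in direction.

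Beyond the members, 140 further genes of the same pathways were listed by role, and 128 were measured. Limma called 0 of these 128, with 20 (15.6%) at an unadjusted p under 0.05, 5 higher and 15 lower, against 10.5% of all genes. In 33 (25.8%) the groups did not overlap, 10 with SmoM2 higher and 23 lower, against 15.7% of all genes (5.64% higher and 10.1% lower). Their median change was -0.001, against 0.002 over all genes. These lists too were chosen with earlier results of these data known, and the shares were not tested.

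Among 12 further sugar and monocarboxylate transporters 0 passed, from Slc2a2, the glucose transporter of liver and pancreas, at -0.35 (adjusted p = 0.128) to the monocarboxylate transporter Slc16a7 at 0.18, with 6 positive and 6 negative changes. Among 15 further glycolytic enzymes and isoforms 0 passed, from Pfkfb2 at -0.27 to the testis lactate dehydrogenase Ldhc at 0.23, with 7 positive and 8 negative. Gluconeogenesis and glycogen genes (16 measured, 0 passed) ran from pyruvate carboxylase, Pcx, at -0.25 to Pck1 at 0.15, with 7 positive and 9 negative. Pentose phosphate genes (7 measured, 0 passed) ran from Rpia at -0.18 to H6pd at 0.12, with 6 positive, 1 negative and a median of 0.03. Genes of pyruvate entry into mitochondria and its use there (11 measured, 0 passed) had 8 positive and 3 negative changes and a median of 0.03. They ran from the kinase Pdk2 at -0.18 to the carrier subunit Mpc1 at 0.14. The 1 probe set of Mpc1 is numbered among chromosome 12 although the gene is on chromosome 17.

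HIF partners and oxygen sensors had 11 of 14 negative changes, a median of -0.10 and 0 past the test. The coactivator Ep300 was lowest at -0.39 (adjusted p = 0.154), and the ubiquitin ligase Siah1a was highest at 0.12. The 39 measured further HIF targets were split, with 21 positive and 18 negative changes, a median of 0.02 and 0 past the test. The mitochondrial adenylate kinase Ak4 was highest at 0.36 (adjusted p = 0.0912), on a probe set numbered among chromosome 2 although the gene is on chromosome 4. On the probe set numbered among chromosome 4 its change was 0.15 (adjusted p = 0.612), so its place as the highest rests on the probe set used. The vessel peptide Edn1, made by endothelium and epithelium, was lowest at -0.40 (adjusted p = 0.0662). Mitophagy genes (14 measured, 0 passed) had 10 negative changes and a median of -0.05, from the kinase Pink1 at -0.30 (adjusted p = 0.141) to the mitophagy receptor Fundc1 at 0.03.

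**Figure D5:**
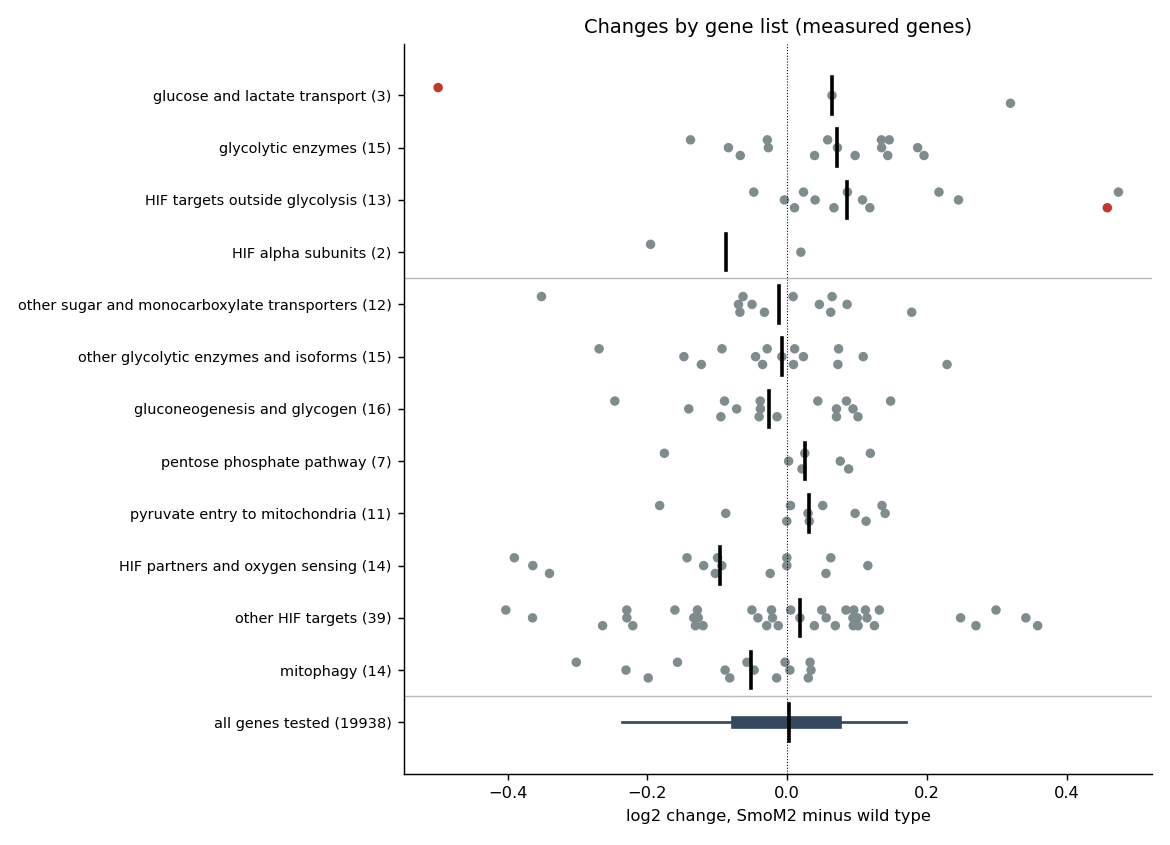
Log2 change (SmoM2 minus wild type) of each measured gene by list, with a black bar at the list's median, red points past the test and, at the foot, the 5th to 95th and 25th to 75th percentiles of all 19938 genes. Bnip3 and Slc2a3 are the red points, and the 8 lists below the first line hold none.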

How the data were processed

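Signals came from 6 arrays of embryonic mouse stomach, 3 SmoM2 and 3 wild type, grouped by title. The deposited values are log2 signals of 35556 probe sets. Per the submitters' processing notes the tools were RMA and affy, without a version. RMA draws arrays towards 1 distribution, so a change in total RNA would not show. Gene names came from the platform annotation, which gave 1 symbol to 21789 probe sets and several to 1621.

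The contrast of SmoM2 minus wild type was fitted by limma 3.58.1 (R 4.3.3; lmFit, then eBayes) to 19938 genes, with Benjamini-Hochberg adjustment over all of them. No filter on dim probe sets was used, so all 33 measured members were tested. An exact permutation test of 3 against 3 cannot go below a two-sided p of 0.1. Changes are log2 differences with moderated SE, and levels are means ± SD. The fit was also run on simulated data with changes of known size. Noise there was independent between genes and arrays, so that run does not bear on array or sex differences.

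Members and lists were chosen with earlier results of these data known. Values on every array are given for members past the test, with non-overlapping groups or with the largest change of a role, and for the HIF subunits. Of each further list the highest and lowest changes are named. Pfkfb3 and Vegfa were added after their values were seen. Promoter windows are RefSeq's on GRCm38.p6. The alternatives tried were omission of each array, a replicate block, a filter on dim probe sets, the mean of probe sets, other scalings, an intensity trend, array weights, a Y-linked covariate and own-chromosome probe sets. The number of arrays limits the precision.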

Additional observations from a re-analysis of the deposited data

How the results depend on the processing

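Over all genes 196 were called (65 higher, 131 lower), 2 of 33 members and 0 of 128 further pathway genes. Leaving out 1 array gave 32 to 247 calls over all genes, 0 to 3 members and 0 pathway genes: 51 calls without wild type 1, 62 without wild type 2, 80 without SmoM2 1 and 32 without SmoM2 3, each with 0 members, 228 without wild type 3 with 3 members, and 247 without SmoM2 2 with 1 member. With replicate number as a block there were 698, 4 and 8 calls (all genes, members, pathway genes), although the deviations of same-numbered arrays correlated at -0.10, 0.52 and 0.06, and SmoM2 1 correlated best with wild type 3. An intensity trend gave 336, 4 and 2 calls, array weights (gene-by-gene method) 343, 3 and 4, centring on the 75th percentile 120, 1 and 0, and the Y-linked covariate 22, 0 and 0. A filter at the median gave 2 pathway calls and repeated quantile normalization 1. The causes were not tested.

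Of 776 values of 49 named genes over 16 alternatives, 720 kept direction and side of the threshold, and 27 changed sign, 0 of them called. With the covariate these were Pkm -0.0038, Vegfa 0.0318, Adm -0.0678, Ankrd37 -0.008, Ddit4 -0.0051 and Pck1 -0.0372. Quantile normalization turned Hk2 to 0.0123 and Vegfa to 0.0339, median centring turned Vegfa to 0.0141, and the 75th percentile turned Hk2 to 0.0122, Eno2 to 0.0108 and Vegfa to 0.0353. Array weights turned Ankrd37 to -0.0464. Hk1 was -0.0404 as a mean of probe sets and -0.1198 on its own chromosome's. Over the omissions of 1 array, values ran from -0.002 to 0.083 for Hk1, -0.0554 to 0.0404 for Vegfa, -0.0065 to 0.0222 for Ddit4, -0.0413 to 0.2893 for Pck1, -0.0811 to 0.0229 for Eno2, -0.0905 to 0.0336 for Hk2, -0.0737 to 0.0906 for Ankrd37 and -0.0298 to 0.0912 for Fundc1. These genes have no settled direction. Egln3 was called in 4 alternatives, Ak4 in 5, Edn1 in 3, Slc16a3 and Slc2a2 in 2 and Ep300 in 1.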
